A study of Mus musculus with 39 samples.

Results

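The inter-alpha-trypsin inhibitors and macroglobulins are secreted plasma proteins of the liver, and their transcripts were followed here across sucrose gradients of mouse liver homogenate. The set was defined by name and holds 8 genes, Itih1, Itih2, Itih3, Itih4, Ambp, Pzp, Mug1 and Mug2, all of which were among the 13230 genes present in the tables of both gradients. All libraries came from liver of wild type FVB female mice, with no treatment or further genotype, and the age and number of animals are not given in the sources used here. Tissue was homogenized with beads and without detergent, nuclei were spun out, and the supernatant was resolved by velocity sedimentation in 10-50% sucrose into 24 fractions numbered from light to dense. RNA-Seq was performed on 17 fractions of gradient 1 (4 to 19 and 21) and 22 fractions of gradient 2 (3 to 24), so that 17 fractions were shared and each fraction of a gradient was a single library. The replicates are the 2 gradients, which the study's methods treat as independent biological samples. The question asked of these data was how transcripts distribute over the gradient, and values are TPM, an abundance scaled by transcript length and by the sum over all transcripts of a library, so that they are shares of the RNA in a fraction and not amounts. Fractions were grouped into a light zone (4 to 7), an upper zone (8 and 9), a middle zone (10 to 13) and a dense zone (16 to 19).

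The inter-alpha-inhibitor family is built from heavy chains, encoded by Itih genes, and from bikunin, a small protease inhibitor cut out of the Ambp precursor. In hepatocytes the heavy chains of Itih1, Itih2 and Itih3 are joined to bikunin through a chondroitin sulfate chain, and in the extracellular matrix they are passed on to hyaluronan. Macroglobulins are large protease inhibitors that trap proteases through a bait region and an internal thioester and are then cleared by the receptor Lrp1. All of these proteins carry a signal peptide and are made by ribosomes at the endoplasmic reticulum.

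Transcripts were matched by symbol to the GENCODE M21 annotation of GRCm38, the assembly also named mm10, and all 8 were found. Itih1 (chr14:30929180-30943289, minus strand), Itih3 (chr14:30908572-30923760, minus strand) and Itih4 (chr14:30886476-30902353, plus strand) are neighbors on chromosome 14, and Itih2 lies apart (chr2:10094593-10131396, minus strand). Ambp is at chr4:63143275-63154799 on the minus strand. Mug1 (chr6:121838541-121889057, plus strand), Mug2 (chr6:122006761-122085965, plus strand) and Pzp (chr6:128483567-128526720, minus strand) are on chromosome 6. Ambp has the shortest transcript at 1268 nt, against 2992 to 3531 nt for the Itih genes and 4579 to 4681 nt for the macroglobulins.

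The coding stretch around the heavy chain C-terminal junction, where bikunin is attached and which is cut when the heavy chain matures, is shown to set Itih1, Itih2 and Itih3 beside each other. Capitals mark the codons of the conserved junction, and positions are of the capitals in exon 18 of Itih1 (chr14:30932294-30932305), exon 17 of Itih2 (chr2:10098548-10098559) and exon 18 of Itih3 (chr14:30912710-30912721).
Itih1: gtggacaccGATCCCCACTTCatcatctat
Itih2: gtggaaaatGACCCCCACTTCatcatttac
Itih3: gtggatgggGACCCCCACTTTatcatccaa
The junction codons were not found in the coding sequence of Itih4, whose protein carries no bikunin. Over the coding sequences, 62.9% to 67.7% of aligned bases were identical between pairs of the 4 Itih genes.

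The stretch around the thioester codons, in exon 24 of each macroglobulin gene, is shown because it bears on which reads can be told apart. The capitals mark the thioester codons, at chr6:128491602-128491616 in Pzp, chr6:121878967-121878981 in Mug1 and chr6:122075201-122075215 in Mug2.
Pzp: gccctatGGCTGTGGGGAACAAaacatggt
Mug1: gccctatGGCTGTGGGGAGCAGaacatggt
Mug2: gccctatGGCTGTGGGGAGCAGaacatggt
Mug1 and Mug2 had 0 differing bases in this window and 95.2% identity over aligned coding bases, whereas Pzp differed from each of them at 2 bases of the window. Of the 31-base words of the transcripts, 52.1% of those of Mug1 and 65.1% of those of Mug2 also occurred in another annotated gene, mainly each other and the pseudogene Mug-ps1. The share was 5.27% for Pzp, all with Gm10069 on the opposite strand, and 0% for Ambp and the Itih genes. The levels of Mug1 and Mug2 are therefore uncertain relative to each other and to their pseudogenes.

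TPM summed to 998099 to 999202 per library, and read depth per library is unknown. The tissue label was checked against marker lists. All 8 hepatocyte markers were in both tables, with albumin (Alb) at a mean of 10503 TPM in gradient 1 and 8497 in gradient 2, whereas cholangiocyte markers summed to 4.34 to 7.21 TPM in the zones and Epcam was absent from at least one table. Hepatocyte marker sums went from 39215 TPM in the light to 9216 in the dense zone of gradient 1 and from 26786 to 17816 in gradient 2. Sums of Kupffer cell markers went from 157 to 45.6 and from 149 to 53.4 TPM, those of sinusoidal endothelial markers from 71.6 to 31.6 and from 43.6 to 21.4, and those of stellate cell markers from 58.3 to 17.2 and from 72.4 to 24.6. Of the erythroid list, 3 of 6 genes were in both tables, and their sums went from 394 to 89.02 and from 299.7 to 77.2 TPM. These sums were highest in the upper zone, at 504 and 361 TPM, and were mostly Hba-a1, with means of 253 and 187 TPM. On the log2(TPM + 1) scale Alas2 changed by 0.76 from the light to the dense zone, against -2.18 for Hba-a1 and -1.45 for Hba-a2. Cholangiocyte sums went the other way, from 5.80 to 7.21 and from 4.49 to 5.74 TPM, with none of the 3 tested genes of that list called. Alb is the largest part of the hepatocyte sum, followed by Cps1, a urea cycle enzyme, with means of 2064 TPM in gradient 1 and 3559 in gradient 2. Against the direction of that sum, Cps1 was higher in the dense zone by 2.12 on the log2(TPM + 1) scale (limma, adjusted p = 0.00647). The part of these sums in the results below was not tested. In TPM, a smaller share of a transcript and a larger share of all others cannot be told apart.

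Levels differed widely among the 8 transcripts. Over the 17 shared fractions, Ambp had the highest mean at 438 ± 156 TPM (SD, n = 2 gradients), followed by Itih2 at 287 ± 19.5, Pzp at 232 ± 44.6 and Itih4 at 175 ± 29.9. Itih3 averaged 116 ± 20.2 TPM, Mug1 88.9 ± 28.4, Itih1 47.5 ± 7.97 and Mug2 7.33 ± 3.89. Ambp exceeded Itih2 in both gradients, at 328 against 273 TPM in gradient 1 and 549 against 301 in gradient 2, although the difference of their means was below the SD of Ambp. Itih3 and Mug1 exchanged places between the gradients, with 130.3 against 68.8 TPM in gradient 1 and 102 against 109 in gradient 2. For all other neighbors in this order, the values of the 2 gradients of one gene did not overlap with those of the next. Within the light zone alone Itih2 was above Ambp, at 679 against 530.1 TPM. Ranked among all genes by the mean over fractions, Ambp stood at 367 and Mug2 at 8025.

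**Figure D1:**
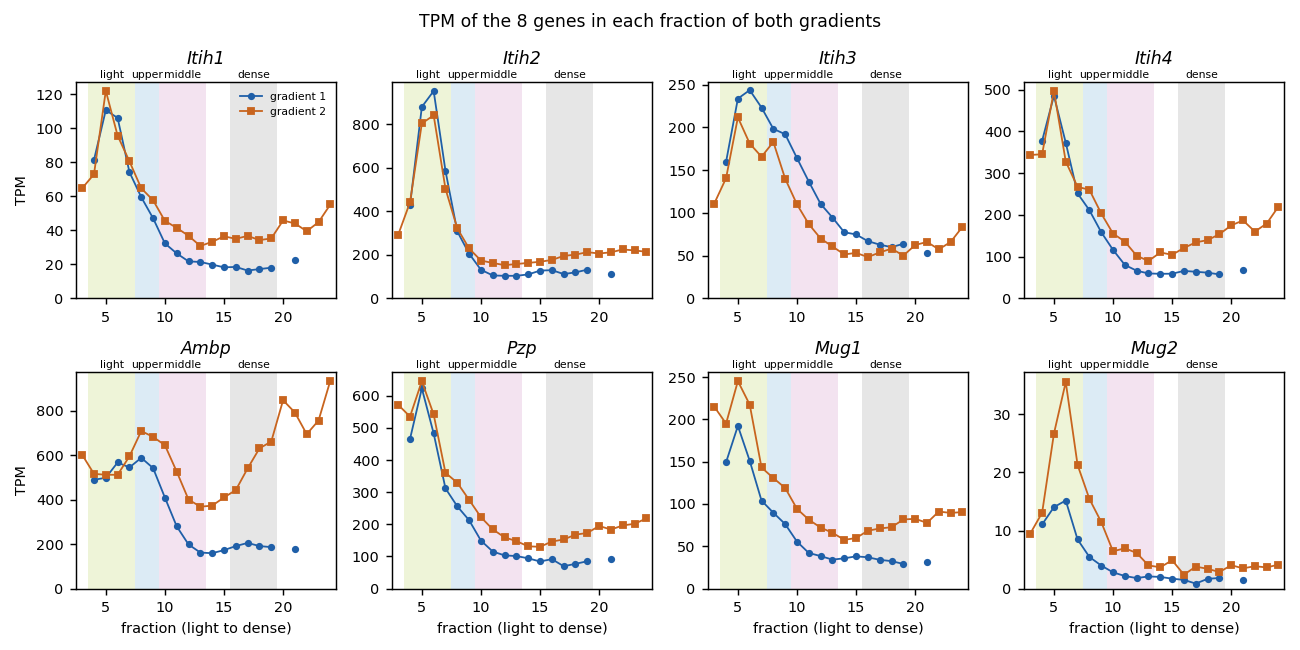
TPM (linear axis from 0) against fraction number for the 8 genes, with blue circles for gradient 1 and orange squares for gradient 2, 1 library per point, and shaded bands for the 4 zones. All genes but Ambp peak at fraction 5 or 6 in both gradients, and Ambp of gradient 2 rises from 369 TPM in fraction 13 to 937 TPM in fraction 24.

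Transcripts of the bikunin-linked heavy chains peaked near the top of the gradient. Itih2 was at 428, 879, 953 and 586 TPM in fractions 4 to 7 of gradient 1 and at 441, 804, 841 and 503 TPM in those of gradient 2. In fractions 16 to 19 it was at 129.7, 112, 119 and 132 TPM and at 176, 195, 201 and 212 TPM. Every light library was above every dense library of its gradient, and the lowest values of Itih2, 104 and 153 TPM, were in fraction 12. Itih1 went from 81.3, 111, 106 and 74.2 TPM in the light fractions of gradient 1 to 16.3 to 18.5 TPM in the dense ones, and from 72.9, 122, 95.6 and 80.5 TPM to 34.2 to 36.7 TPM in gradient 2. The dense fractions of Itih1 were thus at a higher level in gradient 2 than in gradient 1, whereas the light zone means were alike at 93.0 and 92.8 TPM. Itih3 had a broader profile, at 159.7, 234, 244 and 223 TPM in the light fractions of gradient 1 and still at 198 and 192 TPM in fractions 8 and 9. In gradient 2, Itih3 was at 141, 212, 181 and 166 TPM in the light zone and at 183 and 140.1 TPM in the upper zone.

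Itih4, a heavy chain relative that is made without bikunin and behaves as an acute phase protein, was closer in profile to Itih1 than to Itih3, with R of 0.98 and 0.97 to Itih1 and of 0.83 and 0.88 to Itih3. Its light fractions were at 377, 485, 373 and 251 TPM in gradient 1 and at 345, 497, 328 and 267 TPM in gradient 2. Dense fractions of Itih4 were at 57.4 to 65.7 TPM and 121 to 154 TPM, so the groups did not overlap in either gradient.

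The macroglobulins followed the same course. Pzp, which in mice is the main circulating macroglobulin of this type, was at 466, 623, 483 and 312 TPM in the light fractions of gradient 1 and at 535, 646, 542 and 360.4 TPM in those of gradient 2. Its dense fractions were at 69.5 to 91.5 TPM and 146 to 173 TPM. Mug1, a murinoglobulin that acts as a monomeric inhibitor, was at 149, 192, 151 and 104 TPM in the light fractions of gradient 1 and at 195, 245, 217 and 143 TPM in those of gradient 2, against 29.1 to 36.9 and 68.3 to 81.6 TPM in the dense fractions. Mug2, the second murinoglobulin gene, was at 11.0, 14.0, 15.2 and 8.46 TPM and at 13.1, 26.7, 35.6 and 21.3 TPM in the light fractions, and at 0.855 to 1.82 and 2.39 to 3.77 TPM in the dense ones. No dense library of the 3 macroglobulin genes reached the lowest light library of its gradient. The share of all genes whose light and dense libraries separate like this, as those of the Itih genes also did, was not counted. Peak TPM exceeded lowest TPM 17.7-fold and 14.9-fold for Mug2 and 4.26-fold to 8.96-fold for Pzp and Mug1.

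Zones were compared with limma on means of log2(TPM + 1) per zone and gradient, with Benjamini-Hochberg adjustment over 11754 genes. On this scale changes of low transcripts such as Mug2 are understated. Between the light and dense zones, 7 of the 8 genes fell and none rose, beside 39.6% of all tested genes that fell and 22.3% that rose, 61.9% in all. The median change of the 8 genes was -1.89 (log2), against -0.43 over all genes. The median over all genes depended on the scaling, at -0.05 after quantile normalization, where 49.4% of the called genes were lower in place of 64.0%, and the median of the 8 genes was then -1.99 with the same number called.

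Among the heavy chains, Itih2 fell by 2.06 (SE 0.29, adjusted p = 0.00195), and its zone means went from 712 to 123 TPM in gradient 1 and from 647 to 196 in gradient 2. Itih1 fell by 1.83 (SE 0.36, adjusted p = 0.00679), Itih3 fell by 1.72 (SE 0.26, adjusted p = 0.00245) and Itih4 fell by 1.94 (SE 0.40, adjusted p = 0.00763). Of the macroglobulins, Mug2 changed most on this scale with -2.48 (SE 0.50, adjusted p = 0.00718), which is 5.57-fold in TPM + 1. Its light zone mean in TPM was 8.35 times the dense zone mean in gradient 1 and 7.79 times in gradient 2. Pzp fell by 2.08 (SE 0.37, adjusted p = 0.00443) and Mug1 fell by 1.76 (SE 0.46, adjusted p = 0.0181). Each of these 7 genes fell in both gradients. The SEs are large beside the differences between the 7 genes, whose order was not tested. Leaving out a single zone mean, with the remaining one assumed to vary like the other zones, left 4 genes called without the light zone of gradient 1, 4 without that of gradient 2, 6 without the dense zone of gradient 1 and 8 without that of gradient 2. In the same order, 27.8%, 30.8%, 35.9% and 37.2% of all tested genes were lower in these fits. Itih2, Itih3 and Pzp were called in all 4 of these fits, and the highest adjusted p of the other called genes was 0.114, for Mug1 without the light zone of gradient 2.

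**Figure D2:**
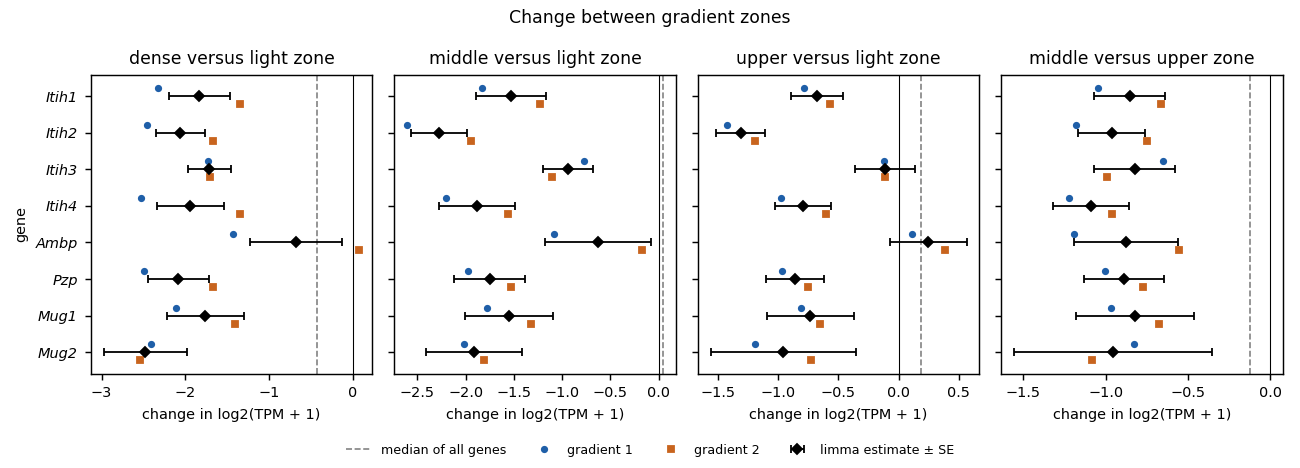
Change in log2(TPM + 1) between zones for the 8 genes, with diamonds and bars for the limma estimate ± SE (n = 2 gradients per zone), circles and squares for gradient 1 and gradient 2, and a dashed line for the median of all 11754 genes. In the dense versus light panel 7 genes lie between -2.48 and -1.72, and Ambp lies at -0.68 with its gradients apart at -1.43 and 0.08.

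Most of this difference was already present in the middle zone. Between the light and middle zones the same 7 genes fell, beside 24.1% of all tested genes, with a median of -1.65 for the 8 genes and 0.05 for all genes. Itih2 fell by 2.27 (SE 0.29, adjusted p = 0.00261), a 4.84-fold lower level at the 2.04th percentile of all changes. Itih3 fell by 0.94 (SE 0.26, adjusted p = 0.0285). The other called genes lay between -1.91 for Mug2 and -1.53 for Itih1. Without a single zone mean, 2 genes were called when the middle zone of gradient 1 was left out, 6 when that of gradient 2 was left out, and 1 when the light zone of either gradient was left out. Of all tested genes 12.3% and 16.1% were lower without the middle zone of gradient 1 and 2, and 12% and 14.5% without the light zone of gradient 1 and 2, so that 1 of 8 is near the share over all genes. Itih2 was called in each of these fits.

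Between the middle and the dense zone none of the 8 genes passed the adjusted threshold in limma, beside 27.3% of all tested genes (22.5% lower and 4.79% higher), and 1 gene, Itih3, had an unadjusted p under 0.05. Itih3 changed by -0.78 (SE 0.26, adjusted p = 0.0746) and Mug2 by -0.56 (SE 0.50, adjusted p = 0.466). With the gradient as a block both were called, with adjusted p of 0.00523 for Itih3 and 0.0189 for Mug2, beside 39.3% of all tested genes that were lower in that fit. Itih2 changed by 0.22 (SE 0.29, adjusted p = 0.642), with 0.15 in gradient 1 and 0.28 in gradient 2.

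In the step to the upper zone Itih2 was called and Itih3 was not. From the light to the upper zone 2 genes fell, Itih2 by 1.31 (SE 0.20, adjusted p = 0.00936) and Pzp by 0.86 (SE 0.24, adjusted p = 0.0468), beside 9.7% of all tested genes that were lower. Itih3 differed by -0.12 (SE 0.25, adjusted p = 0.751), with zone means of 215 and 195 TPM in gradient 1 and 175 and 162 in gradient 2. Whether the changes of Itih2 and Itih3 differ was not tested. With the gradient as a block 6 genes were called, and Itih1, Itih4, Mug1 and Mug2 were added with adjusted p of 0.00855, 0.00557, 0.00276 and 0.00161, beside 23.2% of all tested genes that were lower in that fit. The calls of the 2 genes were also lost under other settings, with 1 called without trend, 0 to 1 without a zone mean, and 0 with the zones of gradient 2 moved by 2 fractions, where 0 of all tested genes were called in place of 3593. The median over all genes was 0.19 in this step.

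From the upper to the middle zone Itih1 fell by 0.85 (SE 0.22, adjusted p = 0.0455), Itih2 fell by 0.96 (SE 0.20, adjusted p = 0.0306) and Itih4 fell by 1.09 (SE 0.23, adjusted p = 0.0307), beside 15.6% of all tested genes that were lower and 5.92% that were higher. The other 5 genes had changes of -0.95 to -0.82. Their adjusted p without the block were 0.0538 for Pzp, 0.0679 for Itih3, 0.106 for Ambp, 0.159 for Mug1 and 0.308 for Mug2. With the gradient as a block all 8 were called lower, beside 37.8% of all tested genes, and Ambp had the highest adjusted p at 0.0152. These calls were sensitive to the choice of fractions, since none of the 8 genes was called when the zones of gradient 2 were moved by 1 or 2 fractions, where 726 and 0 of all tested genes were called in place of 2535.

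Ambp, which encodes the precursor of bikunin and of alpha-1-microglobulin, a lipocalin that binds heme, was the exception. In gradient 1 it was at 490.1, 499, 568 and 546 TPM in the light fractions, reached 589 TPM in fraction 8, and was at 191, 205, 191 and 187 TPM in the dense fractions. In gradient 2 it was at 517, 513, 513 and 596 TPM in the light fractions and had a local maximum of 709.8 TPM in fraction 8, with 369 TPM in fraction 13, and was at 444, 541, 632 and 662 TPM in the dense fractions. The light and dense libraries did not overlap in gradient 1 and overlapped in gradient 2. The light zone means of Ambp were close, at 526 and 534 TPM, whereas the dense zone means were 194 and 569.8 TPM.

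Dense against light, Ambp changed by -0.68 (SE 0.55, adjusted p = 0.317), with -1.43 in gradient 1 and 0.08 in gradient 2. The call depended on which gradient stood for the dense zone. Without the dense zone of gradient 2 the change was -1.45 (adjusted p = 0.0281), and without that of gradient 1 it was 0.090 (adjusted p = 0.864). With the gradient as a block the adjusted p was 0.128. Middle against light gave -0.63 (SE 0.55, adjusted p = 0.379) and upper against light 0.25 (SE 0.32, adjusted p = 0.589). A difference between the gradients could not be tested, since each gives a single value per zone.

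Below the dense zone, in fractions 20 to 24 of gradient 2, Ambp was at 849, 793, 696, 757 and 937 TPM, all above the dense fractions. The mean was 1.42 times that of the dense zone, and the other 7 genes had ratios of 1.10 to 1.34, compared with a median of 0.909 over 11371 genes. All 5 bottom libraries exceeded all dense libraries also for Itih1, Itih4 and Pzp. How many of all genes show this separation was not counted, so it cannot be read as particular to these genes. Gradient 1 has a single library in this range, fraction 21, where Ambp was at 176 TPM, below each of its dense fractions.

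The profiles of Ambp in the 2 gradients correlated with R of 0.347 over the 17 shared fractions, whereas the other 7 genes had R of 0.941 to 0.995 and the median over all genes was 0.904. These correlations are descriptions over fractions, which share a gradient and are ordered, so that neighboring points are not independent. Shifting gradient 2 by 1 or 2 fractions gave R of 0.259 and 0.0471 for Ambp.

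The relation between bikunin precursor and heavy chain transcripts varied along the gradient. Ambp made up 36.3 ± 1.96% (SD, n = 2) of the summed TPM of Itih1, Itih2, Itih3 and Ambp in the light zone, with a low of 29.0% in fraction 5 of gradient 1 and 31.1% in gradient 2. Its share was 55.8 ± 3.9% in the upper, 55.7 ± 9.94% in the middle and 57.6 ± 12.5% in the dense zone. The dense zone exceeded the light zone by 13.8 percentage points in gradient 1 and 28.7 in gradient 2. The direction was the same in both gradients. An exact two-sided permutation test of 2 against 2 values that ignores the pairing by gradient cannot go below p = 0.333. A paired one has fewer arrangements still, and neither was run. The light and dense libraries did not overlap in either gradient, with 29.0% to 42.3% against 46.6% to 51.9% in gradient 1 and 31.1% to 44.3% against 63.1% to 69.0% in gradient 2.

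**Figure D3:**
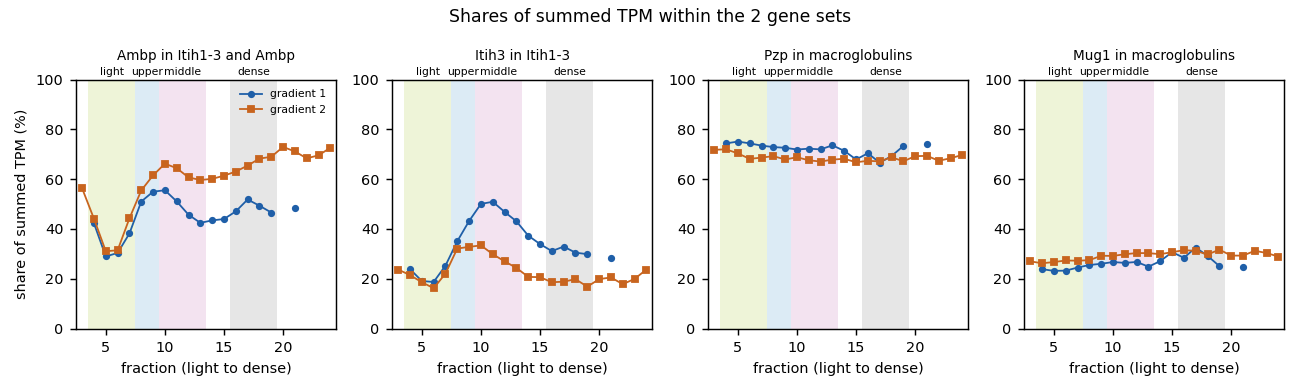
Share of summed TPM (percent, axis from 0 to 100) against fraction for Ambp within Itih1, Itih2, Itih3 and Ambp, for Itih3 within the 3 bikunin-linked heavy chains, and for Pzp and Mug1 within Pzp, Mug1 and Mug2, with circles for gradient 1 and squares for gradient 2. The Ambp share is lowest in fraction 5 (29.0% and 31.1%), the Itih3 share peaks in the upper to middle zone, and the macroglobulin shares stay within a narrow band.

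Among the heavy chains themselves, Itih2 dominated the light zone with 69.5 ± 0.905% of the summed TPM of Itih1, Itih2 and Itih3. In the middle zone Itih2 was at 50.1 ± 10.7% and Itih3 at 38.2 ± 13.5%, compared with 20.7 ± 1.51% for Itih3 in the light zone. The Itih3 share was higher in the middle than in the light zone by 26.0 points in gradient 1 and 9.07 points in gradient 2. In the dense zone the gradients disagreed in direction for Itih3, with 9.37 points above the light zone in gradient 1 and -1.08 points in gradient 2. Itih1 contributed 8.58% to 13.7% in the zones of the single gradients, and its dense zone differed from its light zone by -0.85 points in gradient 1 and 2.17 in gradient 2.

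Shares among the macroglobulins were flatter. Pzp held 72.1 ± 3.21% of the sum of Pzp, Mug1 and Mug2 in the light zone and 68.8 ± 1.61% in the dense zone, and Mug1 held 25.3 ± 2.26% and 29.9 ± 1.57%. Mug1 rose by 5.11 and 4.15 points in the 2 gradients, and Mug2 went from 1.95% to 1.26% in gradient 1 and from 3.30% to 1.32% in gradient 2. The Mug1 and Mug2 shares carry the uncertainty of their shared sequence.

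Profiles were also compared pair by pair within each gradient. Among the 21 pairs without Ambp the median R was 0.970 in gradient 1 and 0.927 in gradient 2. Pzp and Mug1 had R of 0.998 in gradient 1 and 0.997 in gradient 2, the highest of these pairs in gradient 2, whereas in gradient 1 the highest was that of Itih4 and Mug1 (0.998). Pairs with Itih3 but not Ambp had medians of 0.827 and 0.894. The 7 pairs with Ambp had a median of 0.798 in gradient 1, with 0.943 to Itih3, and 0.117 in gradient 2, with 0.0350 to Itih2.

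**Figure D4:**
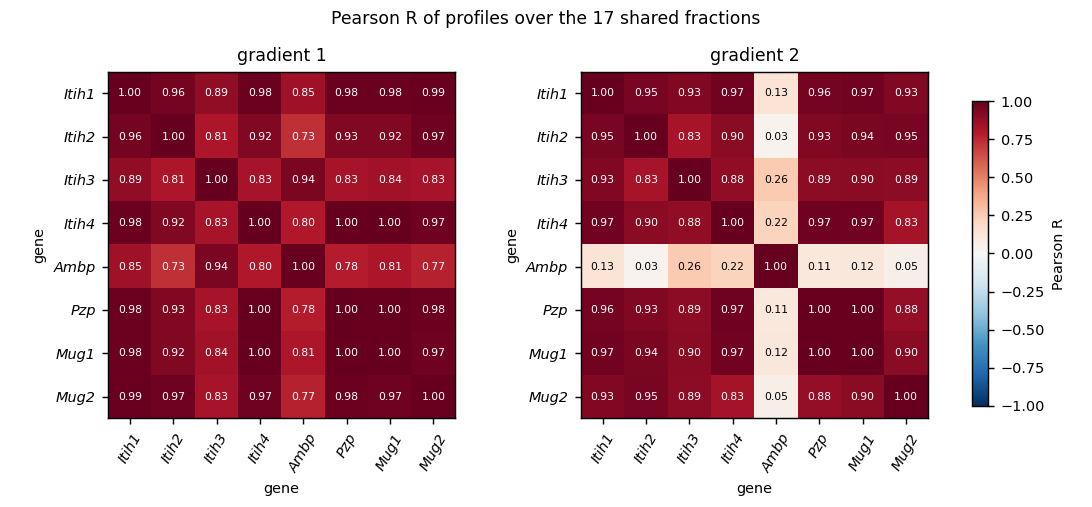
Pearson R between the profiles of each pair of the 8 genes over the 17 shared fractions, in gradient 1 (left) and gradient 2 (right), with the value printed in each cell and color from -1 to 1. The row of Ambp holds 0.73 to 0.94 in gradient 1 and 0.03 to 0.26 in gradient 2, and all other pairs are at 0.81 or above in both.

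The genes whose profiles were most like each member were taken from 6729 genes with a mean of at least 10 TPM in each gradient, by mean R over both gradients and 17 fractions. Pzp and Mug1 shared their closest gene, Lifr, a cytokine receptor, with mean R of 0.997 and 0.996. Itih1 had Fn1, fibronectin, among its 3 closest genes (0.988). Itih4 was closest to Proz, a plasma protein of the coagulation system (0.991), and Hyou1, a chaperone of the endoplasmic reticulum (0.990). Itih2 was closest to Ildr2 (0.994) and Pabpc1, a poly(A) binding protein (0.990), Itih3 to Inpp5a (0.988), and Mug2 to Xpr1 (0.983). Ambp stood with Cyp2d26 (0.958) and Cyp2d10 (0.941), both cytochrome P450 enzymes, and Apoa4, an apolipoprotein (0.931), which was the lowest of these best matches over the 8 genes.

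The center of sedimentation, the mean fraction number weighted by TPM over the shared fractions, lay on the light side of the median of all genes in both gradients for 7 of the genes. It was 8.09 and 8.49 for Mug2, 8.55 and 9.67 for Itih2, 8.64 and 9.64 for Pzp, 8.47 and 10.1 for Itih4, 9.01 and 9.97 for Mug1, 8.91 and 10.2 for Itih1, and 9.75 and 9.74 for Itih3 in gradients 1 and 2. The medians over 11371 genes were 11.3 in each gradient. Ambp was at 9.88 in gradient 1, where 28.1% of genes were lighter, and at 12.2 in gradient 2, where 67.1% were. Apart from Mug2 at the light end, neighbors in the order of mean center, Itih3 and Ambp included, differed by less than the larger of their SDs between gradients.

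Transcript length was set beside the difference of the dense and light zones because the 8 genes differ in length. Over the 8 genes Pearson's r was -0.816, and without Ambp it was -0.451 over 7 genes. Over 10821 tested genes r was -0.158, and over 28 other plasma protein genes it was 0.0107. Of these 28, those shorter than Ambp were Orm1 (775 nt), Rbp4 (1161 nt), Ttr (1186 nt) and Apoh (1190 nt). They changed by -0.31, -0.65, 0.49 and -1.41. The near-identical Serpina1 paralogs, of 1295 to 1581 nt, changed by -3.81 to -3.45 and entered as separate points. These are correlations across genes, which are not independent replicates, and the value over the 8 genes rests largely on Ambp.

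**Figure D5:**
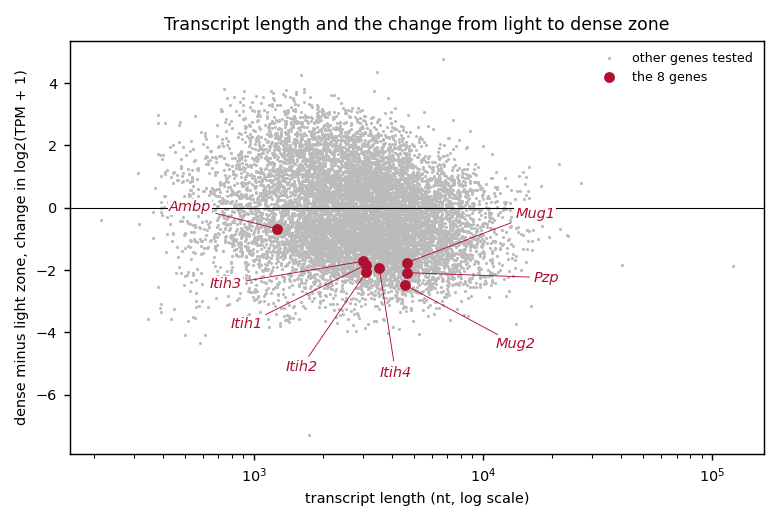
Difference of the dense and light zones in log2(TPM + 1) against transcript length (nt, log axis) for the 10821 tested genes with a length (grey) and the 8 genes (red). Ambp is the shortest at 1268 nt and changes by -0.68, and the other 7 lie between 2992 and 4681 nt and at -1.72 or lower.

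Genes of the same pathways were described from lists chosen by function. Of 51 such genes tested, 38 were called lower in the dense than in the light zone and none was called higher, beside 39.6% and 22.3% of all tested genes, and 49 had a negative change. In the wider alpha-2-macroglobulin family, 3 of 4 tested genes fell, the complement component genes C3 by 2.15 (adjusted p = 0.00352), Hc by 1.96 (adjusted p = 0.000464) and C4b by 0.96 (adjusted p = 0.0206). Both genes of macroglobulin clearance fell, including the receptor Lrp1 by 1.32 (adjusted p = 0.00268). Of the genes for hyaluronan synthesis, binding and breakdown, 6 of 7 tested fell, among them the hyaluronidase Hyal1 by 2.01 (adjusted p = 0.00121), and 10 of the 17 listed were too low to be tested or not in both tables.

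Of the genes for chondroitin chain assembly and the protease furin, 7 of 10 fell. These included Fam20b, a xylose kinase of the linkage region, by 3.00 (adjusted p = 0.000648), the glucuronyltransferase B3gat3 by 1.99 (adjusted p = 0.00258) and Furin by 1.61 (adjusted p = 0.00153). Of the remaining Itih genes none could be tested. The median changes of the 6 tested lists lay between -1.78 and -1.25, beside -0.43 over all genes.

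Other plasma proteins from hepatocytes gave a mixed picture. Of the serpins 11 of 13 fell, and the largest changes were -3.81 for Serpina1e, -3.61 for Serpina1b and -3.58 for Serpina1a (adjusted p of 0.000417 to 0.000736). These near-identical paralogs cannot be separated with certainty. Of the carriers and acute phase proteins 9 of 15 fell, including Gc, the vitamin D binding protein, by 2.98, Hrg by 2.88 and Alb by 2.59 (adjusted p of 0.000758 to 0.00475). The 6 others had changes of -1.41 to 0.49 without passing the test. Of these, 3 genes were negative in gradient 1 and positive in gradient 2, as Ambp was, and were picked out after their values were seen. They were Rbp4 (-1.39 and 0.09, adjusted p = 0.422), Orm1 (-0.90 and 0.28, adjusted p = 0.598) and Ttr (-0.26 and 1.24, adjusted p = 0.366), which encode plasma carrier proteins.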

How the data were processed

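RNA of 39 fractions from 2 gradients was measured. Per the labels and the study's methods, the authors made stranded libraries from equal masses of ribosomal RNA-depleted RNA, used bcl2fastq 2.16.0.10 and Kallisto (version not given in the sources used here) with RefSeq transcripts of mm10, and deposited the values as TPM by gene symbol, in 1 table for each gradient. TPM is scaled within each library. No counts were used, depth is unknown, and precision is known only from the spread between gradients. The strand setting of Kallisto and the summing of transcripts to genes are not given in the sources used here. The number of value columns without a sample was 0.

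Groups were zones of fractions. Means of log2(TPM + 1) per zone and gradient, for genes averaging at least 1 TPM, were fitted with limma 3.58.1 in R 4.3.3 (eBayes with trend) over the light, middle and dense zones, and separately over the light, upper and middle zones, and genes with an adjusted p under 0.05 were called. Profiles are TPM over their mean. Python 3.11.15, pandas 2.3.3, NumPy 2.4.6 and Biopython 1.88 were used for profiles, shares and sequences. The dense against light fit without a block was also run on simulated data. Their errors were independent between zones, with no shared gradient effect, so that run does not bear on the pairing of zones. The gradients pair the zones because all fractions of a gradient were cut from a single homogenate. Across genes, the deviations from the zone mean of same-numbered gradients correlated with r of 0.665 (light and middle), 0.540 (light and dense) and 0.798 (middle and dense), so the gradient was also fitted as a block. Alternatives were another pseudocount, other filters, rescaling without the 50 most abundant genes, quantile normalization, moved zones, eBayes without trend and leaving out zone means or a gradient.

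All 8 genes are named. From each pathway list, up to 3 of the largest rises and falls, dense against light, were named among called genes averaging at least 10 TPM, and up to 3 best matching profiles for each of the 8, of which 1 is not reported here. The 8 genes, lists and tests were chosen with earlier results of these data known.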

Additional observations from a re-analysis of the deposited data

How the results depend on the processing

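From the light to the dense zone the count of genes called, 7, was 6 or 7 under the alternatives that kept both gradients of every zone and 4 to 8 without a single zone mean. From the light to the middle zone the count of 7 was 6 or 7, and 1 to 6 without a zone mean. All values of the called genes kept their negative sign under every alternative, 104 of 104 in each of these comparisons. The 38 related genes called became 24 to 41 without a zone mean. Between the middle and dense zones 0 of the 8 genes were called, and 2 with the replicate block. From the light to the upper zone the 2 called became 4 with quantile normalization and 6 with the replicate block. They became 4 and 0 with the zones of gradient 2 moved by 1 and 2 fractions, and 1 without trend. Of 11754 tested genes, 1140 were lower in the main fit of this step, 1909 with quantile normalization and 2725 with the block. With moved zones 907 and 0 were lower, and without trend 1197. From the upper to the middle zone the 3 called became 8 with the replicate block, 0 with moved zones, and 0 to 5 without a zone mean. The replicate block changed no other count of the 8 genes. Over all genes it raised the calls from 5589 to 8478 (middle against light), 3208 to 6275 (dense against middle), 3593 to 7715 (upper against light) and 2535 to 7041 (middle against upper). With the zones moved by 2 fractions these 4 counts were 3658, 0, 0 and 0, with the zones moved by 1 fraction dense against middle gave 1919, and a filter at 10 TPM left 4798 of 7274 for dense against light with 7233 genes tested. Without a zone mean the lowest counts over all genes were 2913, 0, 1051 and 0 in the same order. The causes were not tested.

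The sign turned for changes that were not called. Dense against middle, Ambp was at 0.052 rescaled without the 50 most abundant genes, 0.024 with quantile normalization, and 0.17 and 0.28 with moved zones, in place of -0.050, and ranged from -0.82 to 0.72 without a zone mean. Itih4 was at 0.044, 0.15, 0.071 and 0.18 under the same settings in place of -0.057, and quantile normalization gave 0.035 for Itih1 and 0.082 for Mug1. The ranges without a zone mean were -0.12 to 0.55 for Itih2, -0.79 to 0.18 for Itih1, -0.62 to 0.51 for Itih4, -0.77 to 0.35 for Mug1 and -0.82 to 0.16 for Pzp. Upper against light, Ambp was at -0.065 with quantile normalization in place of 0.25, and Itih3 ranged from -0.26 to 0.032 without a zone mean. Ambp dense against light ranged from -1.45 to 0.090 without a zone mean.

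The Ambp share rose from the light to the dense zone by 21.3 points on average, by 20.5 with Itih4 added to the set, and by 13.8 and 28.7 in the single gradients. Rescaling raised the levels of all 8 genes, with Ambp at 622 and Mug2 at 10.3 TPM. Centers weighted by log2(TPM + 1) were 10.3 to 11.9. Shifting gradient 2 the other way by 1 fraction, chosen after seeing the data, gave R of 0.278 for Ambp. TPM leaves counting error unknown, which bears most on Mug2.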
